A study of Mus musculus with 8 samples.

Results

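One-sided SOX10 sites are places where the summit of SOX10 binding lay outside the H3K27ac regions called in both replicates. Such a region lay close by to 1 side and none close by to the other. An overlap of 1 bp or more joined the peaks of both replicates of an antibody into consensus regions, and regions with peaks of a single replicate were set aside. A SOX10 consensus site was taken when the summit of its peak with most tags lay in no H3K27ac consensus region and had such a region within 1 kb on exactly 1 side. This held for 853 of 4159 SOX10 consensus sites, 20.5% (95% Wilson interval 19.3 to 21.8%). With the peaks of SOX10 replicate 2 alone as sites, that is without SOX10 replicate 1, it held for 1833 of 9613. The side with the region is called acetylated and the other empty, and left and right mean lower and higher positions on the chromosome. Empty refers to consensus regions only: at 508 of the 853 sites at least 1 H3K27ac library had a peak within 1 kb on that side. A further 865 sites had H3K27ac consensus regions within 1 kb on both sides (20.8%), 682 had the summit inside such a region (16.4%) and 1759 had none within 1 kb (42.3%). Members were thus chosen by measured values, the called positions of SOX10 and H3K27ac, so values from those calls are given as descriptions and no test was made on them.

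The lists came from chromatin immunoprecipitation sequencing (ChIP-seq) of melan-Ink4a-Arf-1 (melan-a), an immortalised mouse melanocyte line from normal embryonic skin of Cdkn2a tm1RDp/tm1RDp mice. All libraries were of this 1 line, grown with 200 nM of the phorbol ester 12-O-tetradecanoylphorbol 13-acetate and 200 pM cholera toxin. SOX10, H3K27ac and H3K27me3 were each profiled in 2 libraries, against 1 input for SOX10 and 1 input shared by both histone marks. Per the labels' protocols the libraries of an antibody came from independent experiments. SOX10 libraries kept 6440395 and 8985699 tags after removal of duplicates, H3K27ac libraries 45583056 and 44416913, and H3K27me3 libraries 67060647 and 71987481. There were 36655 consensus regions of H3K27ac and 30517 of H3K27me3. Positions are in the mm9 build. Gene annotation of that build was not used here, so sites are given by position, and the melanocyte identity of the line was not checked at marker genes.

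SOX10 is an HMG-box transcription factor of the neural crest that binds and bends DNA and that melanocytes need for specification, pigment gene expression and survival. H3K27ac is placed on histone H3 by the coactivators p300 and CBP at active promoters and enhancers. It sits on nucleosomes, so at many regulatory elements the mark flanks the stretch of DNA that the factor occupies. H3K27me3, the Polycomb mark of repressed chromatin, sits on the same lysine, and a given lysine cannot carry both marks. Acetylation on 1 side of a bound site is known from promoters and from the edges of acetylated domains, and a called one-sided pattern also depends on where the peak caller draws regions.

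The acetylated side was left at 418 sites and right at 435 sites, 49.0% (45.7 to 52.4%) and 51.0% (47.6 to 54.3%). The H3K27ac region began at a median of 310 bp from the SOX10 summit (quartiles 161 and 530 bp, from 1 to 999 bp). It lay within 100 bp at 130 sites, within 500 bp at 618 sites and within 900 bp at 824. The distance hardly depended on direction, with a median of 313.5 bp to the left and 303 bp to the right. At the sites flanked on both sides the nearer region began at a median of 143 bp and the farther at 363 bp, so the median of one-sided sites lay between these. From the SOX10 summit to the H3K27ac region's own summit the median distance was 634 bp (quartiles 431 and 870 bp). The SOX10 region itself overlapped an H3K27ac consensus region at 671 of the 853 sites, 78.7% (75.8 to 81.3%), where 53.2% of all SOX10 consensus sites did. At the other 182 sites the SOX10 region ended before the H3K27ac region. The rule puts an H3K27ac region within 1 kb of every one-sided site, so the contrast with all sites is partly set by it. The share with overlap was 98.3% at sites flanked on both sides, 100% with the summit inside and 0.512% with no region within 1 kb.

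**Figure D1:**
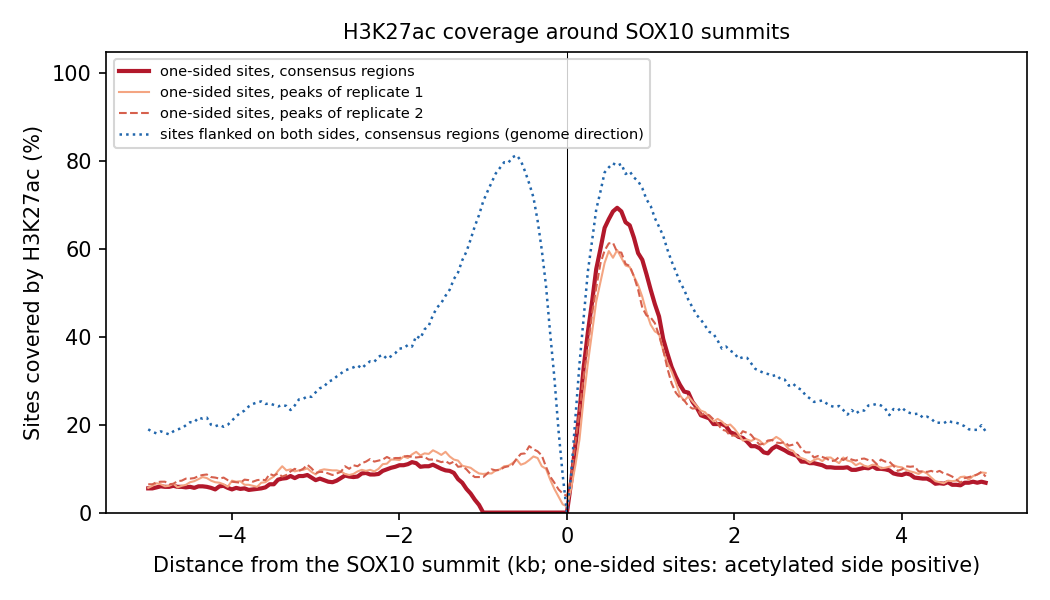
Share of sites covered by H3K27ac regions (y axis, percent) at each distance from the SOX10 summit (x axis, kb), with the acetylated side of the 853 one-sided sites drawn to the right, for consensus regions and for the peaks of each library, and for the 865 sites flanked on both sides in genome direction. Coverage of one-sided sites reached 69.4% at 600 bp on the acetylated side and is 0 within 1 kb on the empty side by the rule, while the single libraries covered up to 12.8% and 15.1% there.

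Coverage around the one-sided summits was highest 600 bp out on the acetylated side, where 69.4% of sites were covered. Further out on that side it fell off. On the empty side coverage rose past the rule's 1 kb to 11.5% at 1850 bp and then declined. At 2000 bp it was 17.9% on the acetylated side and 10.8% on the empty side, and at 5000 bp it was 6.80% and 5.51%. At sites flanked on both sides coverage at 600 bp was 79.0% to the right and 81.4% to the left, and at 5000 bp it was still 18.5% and 19.0%. One-sided sites therefore carried less H3K27ac at 5000 bp on either side than sites flanked on both sides, in these lists.

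Beyond the rule's 1 kb the empty side was poorer in H3K27ac than the acetylated side, and the gap closed with distance. The rule sets part of this gap, since a region that reaches within 1 kb is excluded on the empty side. Flanking regions on the acetylated side can run on past 1 kb, and at some sites past 2 kb. From 1 to 2 kb a consensus region was present on the acetylated side at 61.8% of sites (58.5 to 65.0%) and on the empty side at 20.3% (17.7 to 23.1%), where the first value includes flanking regions that run on past 1 kb. From 2 to 5 kb the shares were 38.1% (34.9 to 41.4%) and 27.8% (24.9 to 30.9%). From 5 to 10 kb they were 27.7% (24.8 to 30.8%) and 22.9% (20.2 to 25.8%), with intervals that overlap. A region was on the acetylated side alone at 153 sites there and on the empty side alone at 112. Both sides belong to the same sites, so the separate intervals do not compare them in pairs. From 10 to 50 kb the shares were 53.7% and 52.5%. The empty side was not devoid of acetylation at any of these distances. From 2 to 5 kb its share of 27.8% stood above the 8.90% of the sides of SOX10 sites with no region within 1 kb and below the 63.8% of the sides of sites flanked on both sides.

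The next H3K27ac region on the empty side began at a median of 17463 bp from the summit, with quartiles at 2570 and 86150 bp. At 1 site no region followed on that side of the chromosome. The region on the acetylated side stood alone within 10 kb of the summit at 262 sites, 30.7% (27.7 to 33.9%).

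**Figure D2:**
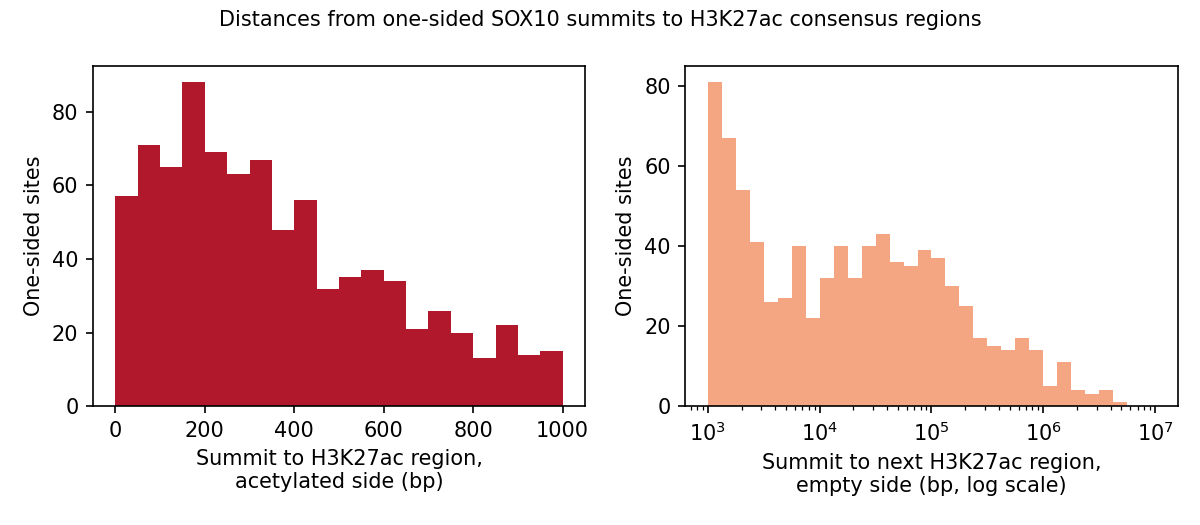
Number of one-sided sites (y axes) by distance from the SOX10 summit to the H3K27ac region on the acetylated side (left panel, bp) and to the next H3K27ac region on the empty side (right panel, bp, log scale; 1 site without such a region is not drawn). Distances on the acetylated side have a median of 310 bp and thin out towards 1 kb, and those on the empty side have a median of 17463 bp and are most frequent just past 1 kb.

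At a majority of sites the absence of H3K27ac on the empty side rested on the requirement that both libraries call the region. At 508 of the 853 sites, 59.6% (56.2 to 62.8%), at least 1 H3K27ac library had a peak within 1 kb of the summit on the empty side. This was a peak of replicate 1 alone at 201 sites, a peak of replicate 2 alone at 244 sites and peaks of both libraries that did not overlap each other at 63 sites. At the remaining 345 sites, 40.4% (37.2 to 43.8%), neither library had a peak there. The share rests on both libraries: called without H3K27ac replicate 1, 34.1% of 956 one-sided sites had a peak of replicate 1 on the empty side, and called without replicate 2, 40.7% of 936 had a peak of replicate 2 there. The label one-sided thus describes the consensus calls, and 345 of the 853 sites also held it when a peak of either library counted. Over all sides of uncovered SOX10 summits that had no consensus region within 1 kb, 32.3% of 4371 sides had such a peak. Among the sites with no consensus region within 1 kb it was 25.7% of 3518 sides (24.3 to 27.1%), with 25.4% to the left and 26.0% to the right. At 44 sites, 5.16%, a peak of 1 H3K27ac library covered the SOX10 summit itself.

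**Figure D3:**
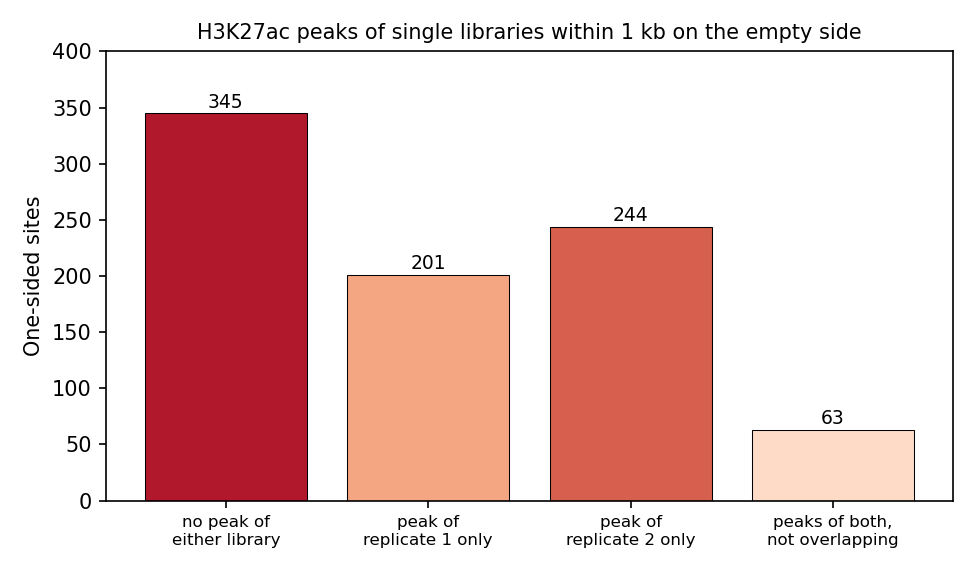
Number of one-sided sites (y axis) by which H3K27ac libraries had a peak within 1 kb of the SOX10 summit on the empty side (x axis). Neither library had one at 345 sites, 1 library alone at 201 and 244 sites, and both libraries at 63 sites without overlap.

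These single-library peaks held fewer tags than the regions across the summit. Those of replicate 1 held a median of 27 tags (quartiles 21 and 40) with a fold enrichment of 7.87, and those of replicate 2 a median of 26 tags (21 and 37) with a fold of 7.54. On the acetylated side of the same sites the region held a median of 48.5 tags in replicate 1 and 48 in replicate 2, where a region can join several peaks. The empty-side peaks were also close to the median of 30 tags of all H3K27ac peaks in each library. Their -log10(p), multiplied by 10 in the lists, had medians of 76.8 and 78.3, where the authors' cutoff is 50 and the medians of all H3K27ac peaks were 86.7 and 87.9. With a value of at least 100 required in all lists, 267 sites were one-sided, and 53.2% of them had such a peak on the empty side.

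The 345 sites without a peak of either library had a median SOX10 fold of 10.5 ± 0.127 (SD of the medians of both libraries, n = 2), and the 508 others 11.2 ± 0.177. This SD does not measure the spread over sites, which overlapped widely. The quartiles were 8.32 and 14.15 against 8.32 and 15.82 in replicate 1, and 8.02 and 14.24 against 8.70 and 16.88 in replicate 2. The region on the acetylated side was narrower at the 345 sites, with a median of 477 bp (quartiles 335 and 684 bp) against 564.5 bp (402 and 817 bp). It stood alone within 10 kb at 38.6% of the 345 sites (33.6 to 43.8%) and at 25.4% of the others (21.8 to 29.4%). The next consensus region on the empty side was within 2 kb at 46 of the 345 sites and at 127 of the 508. These values come from the same H3K27ac calls that define both sets, so they describe the sets and are no independent difference. A peak of either library on the empty side was present at 46.7% of the sites with the narrowest flanking regions (144 to 374 bp), 59.2% at 376 to 532 bp, 67.1% at 533 to 778 bp and 65.3% with the widest (779 to 2771 bp), in groups of 213 or 214. By the fold enrichment of the flanking region the shares lay closer together, from 55.1% in the lowest of 4 such groups to 62.9% in the highest.

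Taken 1 library at a time, most sites kept their side. With the peaks of H3K27ac replicate 1 alone 580 sites were one-sided on the same side, 249 had peaks on both sides, 12 had the summit inside a peak, 9 had none within 1 kb and 3 were one-sided on the other side. With replicate 2 alone the numbers were 540, 268, 32, 6 and 7. An H3K27ac consensus region holds peaks of both libraries by rule, so a peak of either library on the acetylated side was largely set in advance. The few changes of side are therefore no separate evidence for the side. The summits of both SOX10 libraries lay a median of 48 bp apart (quartiles 21 and 95 bp). With the summit of SOX10 replicate 1 as the reference point 791 sites, 92.7%, kept class and side, and with that of replicate 2 841 sites did. The summit used for a site is by rule that of 1 of these libraries, so these counts partly restate the rule. The summit of replicate 2 lay nearer to the H3K27ac region than that of replicate 1 at 410 sites and farther at 436.

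The acetylated regions next to one-sided sites were typical of H3K27ac regions in this line. Their median width was 532 bp (quartiles 374 and 778 bp), against 547 bp for all 36655 H3K27ac consensus regions. Their median fold enrichment over input, the authors' ratio at the peak summit, was 8.74 in replicate 1 and 8.57 in replicate 2, against 8.70 and 8.57 for all. They held a median of 44 and 47 tags in the 2 libraries, against 46 and 48 for all. The regions at sites flanked on both sides were wider, with medians of 716 bp for the nearer and 721 bp for the farther region, and held more tags, 73 in both libraries for the nearer and 68 and 67 for the farther. At 552 one-sided sites, 64.7% (61.4 to 67.8%), the flanking region was not followed by another within 1 kb on that side. At 193 sites it formed a run of 2 regions, at 54 a run of 3 and at 54 a run of 4 or more. The span of such a run had a median of 720 bp and reached 15317 bp. Only 4 of the sites shared their H3K27ac region with another one-sided site, so the 853 sites lay beside 851 different regions.

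SOX10 enrichment at one-sided sites was close to that of all SOX10 sites. The fold enrichment had a median of 10.8 in replicate 1 (quartiles 8.32 and 14.8) and 10.9 in replicate 2 (8.44 and 16.0). All SOX10 consensus sites had medians of 10.95 and 11.03. With a -log10 p, multiplied by 10, of at least 100 in all lists, the mean of both libraries' medians over the 267 one-sided sites was 16.5, against 10.9 over the 853. Sites flanked on both sides had 11.35 and 11.97, sites with the summit inside a region 8.18 and 8.19, and sites with no region within 1 kb 11.86 and 11.96. Tags ordered the classes in another way: one-sided sites had medians of 26 and 38 tags, sites flanked on both sides 31 and 48, sites with the summit inside 33 and 50 and sites with no region within 1 kb 19 and 28. The interquartile ranges of the classes overlapped in both measures. The input background under a peak, recovered from its tags and p and given relative to the genome-wide level, moved with these classes, with medians of 1.58 in both libraries at one-sided sites, 1.87 and 1.90 at sites flanked on both sides, 2.67 and 2.69 with the summit inside and 1.24 and 1.24 with no region within 1 kb. It is the denominator of the fold, and its part in the order of the classes was not tested. It exceeded 10 times the genome-wide level at 0 of 853 one-sided sites, which allows a share of up to 0.352%.

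**Figure D4:**
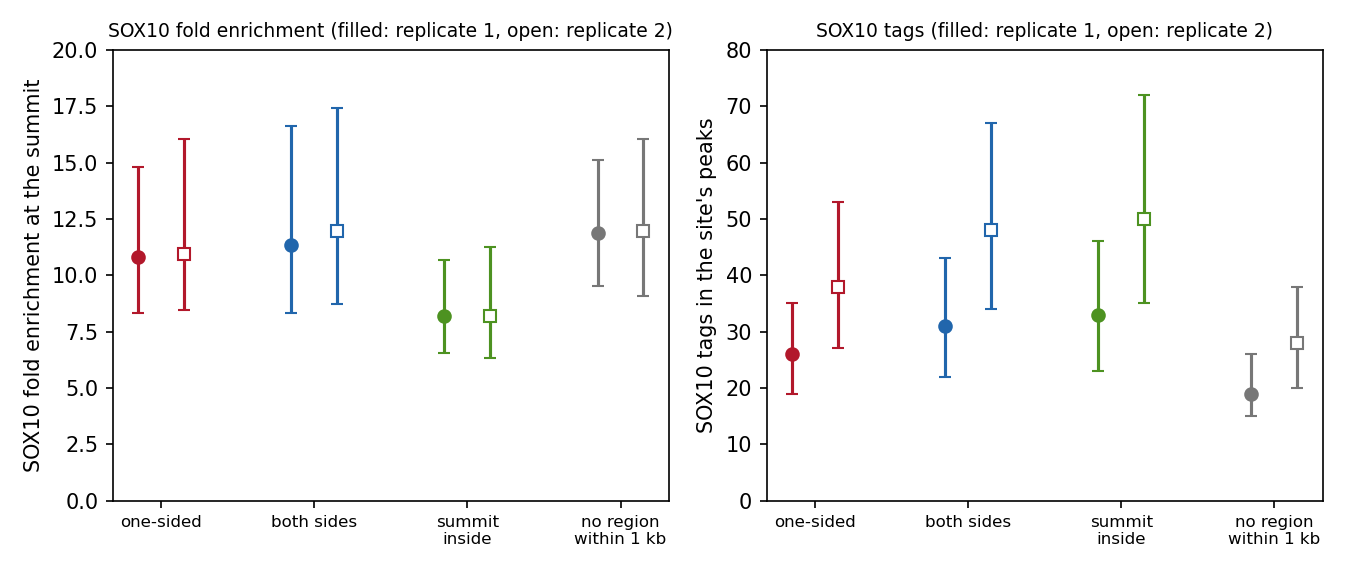
SOX10 fold enrichment at the summit (left panel, y axis) and SOX10 tags in the peaks of a site (right panel, y axis) for the 4 classes of SOX10 sites (x axes); points are medians over sites and bars reach to both quartiles, filled for replicate 1 and open for replicate 2. The medians of one-sided sites are 10.8 and 10.9 in fold and 26 and 38 in tags, and the bars of the classes overlap.

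One-sided sites were found at every level of SOX10 enrichment. Ranked by fold over both libraries, they made up 18.3% of the lowest decile of SOX10 sites and 25.5% of the top decile, with values from 17.5% to 24.8% in the deciles between. Sites with the summit inside a region made up 50.7% of the lowest decile by fold and 3.85% of the top. By the height of the summit, taken as fold times background, one-sided sites made up 16.8% to 25.1% of each decile. The order of sites with the summit inside a region turned round by height, with 8.65% of the lowest decile and 21.4% of the top. Across the 853 sites the log2 fold of both SOX10 libraries correlated with r = 0.731 (Spearman's rho 0.688). The log2 fold of SOX10 and of the H3K27ac region beside it showed r = -0.02 (rho -0.03), and the log2 fold of SOX10 and the log2 distance to that region r = 0.155 (rho 0.121). These are descriptions across sites of the same libraries and carry no test.

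SOX10 regions reached slightly further from the summit towards acetylation. Their reach had a median of 587 bp to the acetylated side (quartiles 499 and 735 bp) and 558 bp to the empty side (480 and 659 bp). It was longer to the acetylated side at 466 sites, 54.6% (51.3 to 57.9%), longer to the empty side at 385 and equal at 2. With acetylation on the left it was 57.7% (52.9 to 62.3%) and on the right 51.7% (47.0 to 56.4%). Sites with no H3K27ac region within 1 kb reached further left at 51.4% (49.1 to 53.8%) and further right at 48.3% (45.99 to 50.7%), so neither direction stood apart there. SOX10 regions of one-sided sites were 1180 bp wide in the median, those flanked by H3K27ac on both sides 1305 bp and those with none within 1 kb 1033 bp. Those with the summit inside an H3K27ac region were the widest, with a median of 1402.5 bp.

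The strongest one-sided site with acetylation on the right had the highest fold of all SOX10 sites and lay on chromosome 2 at 29361522 to 29362762. Its fold was 68.4 in replicate 1 and 68.2 in replicate 2, with 80 and 114 tags. The region beside it was small, 218 bp from 29362331 to 29362548, with H3K27ac folds of 7.50 and 8.53 and 15 and 19 tags, and it began 185 bp from the summit. Neither H3K27ac library had a peak on its empty side, where the next consensus region lay 58251 bp away. This site thus stood beside an acetylated region with fewer tags than the median of flanking regions, 44 and 47.

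The next on the right was on chromosome 15 at 59019439 to 59020602, with SOX10 folds of 55.5 and 38.0 and a 293 bp H3K27ac region 921 bp from the summit, outside the SOX10 region. Another, on chromosome 16 at 86515958 to 86517128, had folds of 42.7 and 38.7 beside a region of 1390 bp with 116 and 133 tags. A site on chromosome 7 at 91568901 to 91570475 had folds of 35.0 and 40.8, and its region of 355 bp began 238 bp from the summit. The fifth, on chromosome 15 at 63506293 to 63507985, had folds of 43.8 and 30.8 and lay 46 bp from a region of 1520 bp that opened a run of 4. These flanking regions thus spanned 218 to 1520 bp. At the last 3 of these sites 1 H3K27ac library had a peak on the empty side.

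With acetylation on the left the highest fold was found on chromosome 12 at 37069924 to 37071545, with 45.2 and 51.6 in replicates 1 and 2. Its region of 1066 bp, at 37069595 to 37070660, began 264 bp from the summit and had H3K27ac folds of 10.5 and 15.5. Replicate 1 had an H3K27ac peak on the empty side, and the next consensus region there was 1471 bp away, so at a limit of 2 kb it had acetylation on both sides. A site on chromosome 14 at 62222500 to 62223622 had folds of 43.5 and 41.6, 65 and 33 H3K27ac tags in its region of 588 bp, and no peak of either library on the empty side. A site on chromosome 18 at 31626280 to 31627819 had folds of 35.7 and 47.9 beside a region of 2335 bp with 245 and 278 tags. A second site on chromosome 14, at 66239729 to 66241896, had folds of 44.8 and 35.7. The fifth, on chromosome 10 at 67999545 to 68000626, had folds of 36.9 and 39.1, and the next consensus region on its empty side was 814444 bp away. Of these 10 sites with the highest folds, 3 had no peak of either library on the empty side, and all 10 had an input background below 2 times the genome-wide level. The background is the denominator of the fold that chose them, so a low value is partly set by the choice. Over all one-sided sites its upper quartile was 2.22 in replicate 1 and 2.25 in replicate 2.

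The widest flanking regions lay beside SOX10 sites without high folds, apart from the site on chromosome 18 at 31626280 to 31627819. The mean SOX10 folds of the others over both libraries ran from 7.205 to 10.94. One-sided sites had medians of 10.8 and 10.9 and lower quartiles of 8.32 and 8.44 in replicates 1 and 2. The widest, 2771 bp on chromosome 3 at 57095972 to 57098742 with 297 and 318 tags, began 13 bp from the summit of a SOX10 site with folds of 6.53 and 8.77. A region of 2483 bp on chromosome 10 at 52137395 to 52139877 had H3K27ac folds of 14.9 and 12.0 beside SOX10 folds of 13.6 and 8.26. On chromosome 4 a region of 2334 bp at 57180612 to 57182945 held the most tags, 430 and 353, beside SOX10 folds of 6.57 and 7.84. On chromosome 9 a region of 2328 bp at 115217311 to 115219638 lay beside SOX10 folds of 9.79 and 8.69, and its nearest neighbour on the empty side was 525033 bp from the summit.

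At the 1 kb limit the rule divides sites that differ by a few bp. Just inside it were sites on chromosome 13 at 41426015 to 41427078, 999 bp from the region, on chromosome 15 at 26766635 to 26767784, at 986 bp, and on chromosome 12 at 89700778 to 89701991, at 984 bp, with SOX10 folds in replicates 1 and 2 of 19.67 and 22.44, 10.36 and 9.78, and 10.40 and 15.47. Just outside were sites on chromosome 1 at 13742203 to 13743333, at 1004 bp, and on chromosome 3 at 102884560 to 102885716 and 102997602 to 102998751, at 1009 and 1012 bp, with folds of 17.13 and 11.03, 9.99 and 8.48, and 14.56 and 20.57. On the empty side, H3K27ac regions just beyond the limit began 1001 bp from the summit of a site on chromosome 1 at 10761565 to 10763371, with SOX10 folds of 37.26 and 32.14, 1016 bp from the summit of a site on chromosome 13 at 9760918 to 9761935 and 1018 bp from that of a site on chromosome 10 at 120181858 to 120183047.

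H3K27me3, which took no part in the choice of sites, rarely touched them. Of the 853 one-sided sites 4 overlapped an H3K27me3 consensus region, 0.469% (0.183 to 1.199%), where 1.32% of all SOX10 consensus sites did. It was 1 of 865 sites flanked on both sides, 2 of 682 with the summit inside and 48 of 1759 with no H3K27ac region within 1 kb. The strongest of the 4 was on chromosome 6 at 17159037 to 17160626, with SOX10 folds of 24.5 and 23.1. Its H3K27me3 region of 9841 bp, with folds of 6.99 and 8.52, ended 521 bp from the summit on the empty side, and the H3K27ac region began 135 bp away on the other. A site on chromosome 2 at 168426714 to 168427868 (SOX10 folds 6.60 and 7.20) also had H3K27me3 on the empty side, 562 bp away. On chromosome 2 at 17947771 to 17950991 (5.63 and 7.79) and on chromosome 11 at 85738605 to 85740300 (8.21 and 4.88) H3K27me3 lay on the acetylated side, beyond the H3K27ac region, 1503 and 1039 bp from the summit. All 4 had their H3K27ac region on the right.

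Further out, the share of sites with H3K27me3 was higher on the empty side in each distance class, and the intervals of both sides were apart from 5 to 10 kb alone. Within 10 kb of the summit 18.8% of one-sided sites (16.3 to 21.5%) had an H3K27me3 consensus region, where 19.4% of all SOX10 sites did, against 10.8% of sites flanked on both sides (8.86 to 13.0%) and 25.6% of those with no H3K27ac region within 1 kb (23.6 to 27.7%). Within 50 kb the share was 54.2% (50.8 to 57.5%), near the 51.9% of all SOX10 sites. From 5 to 10 kb an H3K27me3 region lay on the acetylated side at 8.21% of one-sided sites (6.55 to 10.2%) and on the empty side at 12.4% (10.4 to 14.8%). It was on the acetylated side alone at 43 sites and on the empty side alone at 79. The peaks of single H3K27me3 libraries gave 14.5% on the acetylated side and 21.2% on the empty side in replicate 1, and 16.5% (14.2 to 19.2%) and 21.0% (18.4 to 23.8%) in replicate 2, where the intervals overlap. Closer in the numbers were small, with 4.10% and 5.28% from 1 to 5 kb. From 10 to 50 kb the shares were 32.8% and 37.0%, with intervals that overlap. There H3K27me3 was on the acetylated side alone at 128 sites and on the empty side alone at 164. The intervals treat both sides as separate, though they belong to the same sites, and no paired test was made.

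Among the 462 one-sided sites with H3K27me3 within 50 kb on either side, the nearer region was on the acetylated side at 203 and on the empty side at 259, 56.1% (51.5 to 60.5%) for the empty side. With the peaks of single libraries the share nearer on the empty side was 54.6% (50.7 to 58.4%) in replicate 1 and 56.1% (52.2 to 60.01%) in replicate 2. H3K27ac was itself more frequent on the acetylated side up to 5 kb. From 5 to 10 kb it was at 27.7% there and 22.9% on the empty side, with intervals that overlap. It was on the acetylated side alone at 153 sites in that class and on the empty side alone at 112. The part of H3K27ac in the H3K27me3 difference was not tested. No test over sites was made, since sites are not replicates of a condition.

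**Figure D5:**
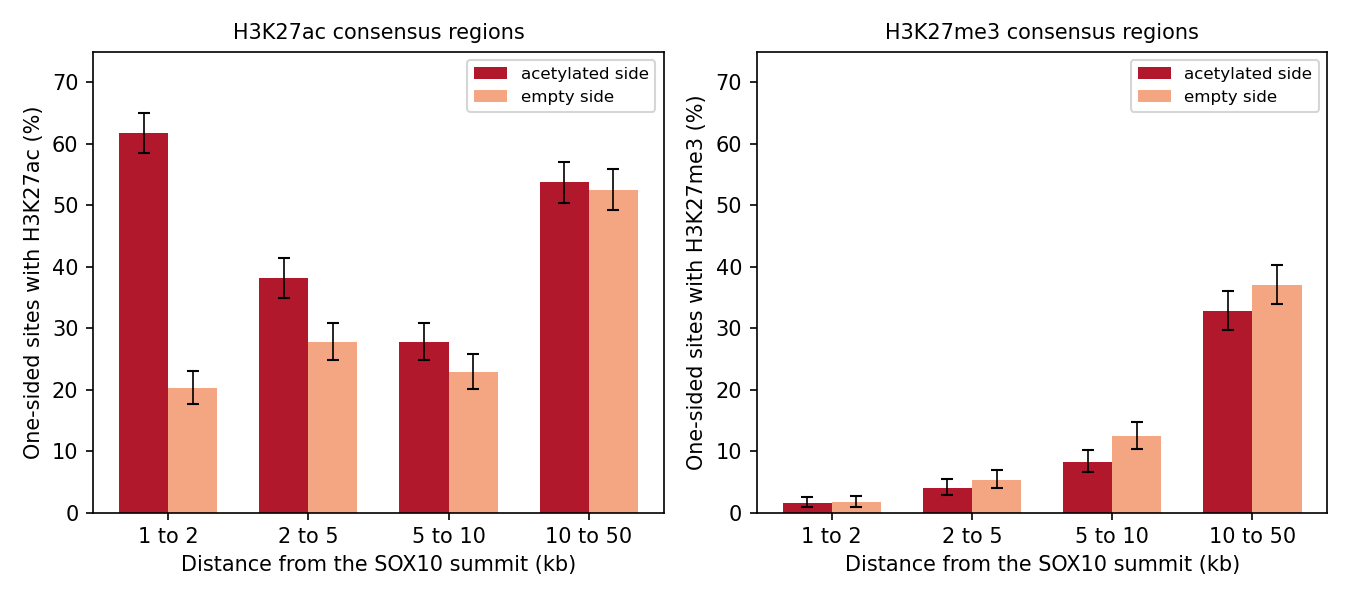
Share of the 853 one-sided sites (y axes, percent) with an H3K27ac consensus region (left panel) or an H3K27me3 consensus region (right panel) in 4 distance classes from the SOX10 summit (x axes, kb), on the acetylated side (dark) and the empty side (light); bars start at 0 and error bars are 95% Wilson intervals. H3K27ac is more frequent on the acetylated side up to 5 kb, and between 5 and 10 kb is at 27.7% and 22.9% with overlapping intervals. H3K27me3 between 5 and 10 kb is found at 8.21% of sites on the acetylated side and 12.4% on the empty side.

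Other SOX10 sites near a one-sided site tended to lie towards its acetylated side. Another SOX10 summit lay within 10 kb of 113 one-sided sites, 13.2% (11.1 to 15.7%), where 13.6% of all SOX10 sites had one. The share was 21.5% (18.9 to 24.4%) at sites flanked on both sides and 8.93% (7.68 to 10.3%) at sites with no H3K27ac region within 1 kb. Of the 113 nearest neighbours 76 lay on the acetylated side, 67.3% (58.2 to 75.2%). With the peaks of single SOX10 libraries as neighbours this was 66.9% of 154 in replicate 1 and 63.0% of 238 in replicate 2. Within 50 kb 40.4% of one-sided sites had another SOX10 summit, where 40.5% of all SOX10 sites did, and the share on the acetylated side was 58.0% of 345 neighbours (52.7 to 63.1%). These 345 include the 113 within 10 kb, so their share does not show a tendency beyond 10 kb. Of the 113 neighbours within 10 kb, 35 were themselves one-sided, 27 flanked on both sides, 21 with the summit inside an H3K27ac region and 30 with none within 1 kb. Where both members of a close pair are one-sided, each counts as the other's neighbour, so these counts are not independent.

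One-sided sites were found on all numbered chromosomes. Chromosome 2 held the most, 86 of its 362 SOX10 sites (23.8%, 19.7 to 28.4%). Among the numbered chromosomes the share ranged from 15.8% of 253 sites on chromosome 3 to 27.8% of 133 on chromosome 17 (20.9 to 36.0%). Chromosome X had 1 one-sided site among 43 SOX10 sites, 2.33% (0.412 to 12.1%). Sides were uneven on some chromosomes, with 10 left and 24 right on chromosome 15 and 22 left and 10 right on chromosome 18, chosen here after their values were seen.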

How the data were processed

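Peak lists of 6 ChIP-seq libraries were used, 2 for each of 3 antibodies, grouped by sample titles. The 2 inputs enter through the authors' calls. Per the file headers, the authors called peaks in each library with MACS 1.4.2 at a p cutoff of 1e-05, with at most 1 tag per position and a local background over 1000 and 10000 bp, turned off for H3K27me3. The submitters' processing notes name mm9, and which aligner was used was not given in the sources used here. The deposited lists give tag counts per peak (whole numbers), -log10 p multiplied by 10, fold enrichment (a ratio to input background) and an FDR in percent, which was not used. The tag distance was 50 and 51 bp for H3K27ac, per the file headers, about the tag length, so H3K27ac calls can be narrow or split.

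Consensus regions, classes, distances and coverage were computed with Python 3.11.15, pandas 2.3.3 and scipy 1.17.1. The SOX10 summit is that of the member peak with most tags, then the highest fold. A region's fold is the highest of its peaks in a library. The input background is the Poisson mean at which a peak's tags give its p, relative to kept tags over the genome size. Wilson intervals are at 95% and, like the limit of 3 counts behind a share of 0, cover counting error only. Of 500 simulated summits, 500 were put in the right class and side. Sites named are the 5 with the highest mean SOX10 fold for each side, the 5 with the widest flanking region, the 3 nearest to the 1 kb limit inside and outside it, and those overlapping H3K27me3. The members, lists and rules were chosen with earlier results of these data known. Alternatives were other distances, summits, thresholds and overlaps, single libraries left out, H3K27ac of either library, and no chromosome 6. No test across libraries or sites was made.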

Additional observations from a re-analysis of the deposited data

How the results depend on the processing

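The number of one-sided sites, 853, stayed within 1.5 times under 9 of 11 alternatives. The exceptions were 1833 with the peaks of SOX10 replicate 2 as sites (without replicate 1), and 267 with a -log10 p, multiplied by 10, of at least 100, where fewer peaks enter. With the peaks of SOX10 replicate 1 as sites (without replicate 2) the number was 1206. With 1 SOX10 or H3K27ac library left out it ranged from 936 to 1833, and H3K27me3 takes no part in the count. The share of SOX10 sites, 20.5%, was between 18.8% and 19.1% with 1 SOX10 library left out and between 22.5% and 23.0% with 1 H3K27ac library left out. The share with H3K27me3 within 50 kb, 54.2%, was 39.0% at the stricter threshold, and 72.5% and 74.3% without H3K27me3 replicate 1 or 2, where more regions enter, with a lowest value of 53.5% when single libraries were left out. The share whose SOX10 region reached further to the acetylated side lay between 52.6% and 55.6% in all 10 alternatives. Of the other results, 63 of 106 values stayed within their counting or replicate spread.

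The count hides a change of members. With H3K27ac peaks of either library 812 sites were one-sided, of which 345 were among the 853 with the same side. With limits of 500 bp and 2 kb the totals were 874 and 838, of which 618 and 680 were shared, and with the summit of the highest fold 859, of which 817 were shared. The nearer H3K27me3 region was on the empty side at 51.0% to 57.9% of sites over 13 alternatives, lowest at the stricter threshold. The share with an H3K27ac peak on the empty side, 59.6%, was 34.1% and 40.7% without H3K27ac replicate 1 or 2. The median SOX10 fold was 16.5 at the stricter threshold. The overlap with H3K27me3 rests on 4 sites. No paired analysis was possible because the results come from no test between groups and the labels do not say whether equal replicate numbers of different antibodies share a chromatin preparation. The single-library peaks on the empty side held medians of 27 and 26 tags, and the part of depth in their calls was not tested.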
